A study of Mus musculus with 6 samples.

Results

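The Krüppel-like factors (KLFs) other than Klf2 were examined in the RNA sequencing of expanded mouse CD8+ T cells. The genes were Klf3, Klf4, Klf6, Klf7, Klf9, Klf10, Klf11, Klf12 and Klf13, which include the TGF-β-inducible Klf10 and Klf11. They were chosen by name, with earlier results of these data known, as 9 of the 57126 genes in the count table. The cells came from the lymph nodes and spleens of OT-I transgenic mice, whose CD8+ T cells carry a T cell receptor against an ovalbumin peptide, and were expanded from day 0 to day 6 with nano-aAPCs, which are nanoparticles that act as artificial antigen-presenting cells. TEff cells (3 samples) received IL-2, and TRM-like cells (3 samples) received IL-2, IL-15 and TGF-β, so the effects of IL-15 and TGF-β cannot be told apart. The sources used here give no mouse age and do not say whether the replicates came from separate mice or cultures. The p-values therefore measure the spread between these samples, which may be technical.

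KLFs are transcription factors that bind CACCC and GC-rich elements in promoters through 3 zinc fingers at the C-terminal end of the protein. The fingers are alike across the family, and the N-terminal part decides whether a member recruits activators or repressors. Klf3 and Klf12 bind the corepressor CtBP, whereas Klf9, Klf10, Klf11 and Klf13 can recruit Sin3A and histone deacetylases. In T cells the family is known mainly for Klf2, which maintains S1pr1 and with it recirculation through lymph nodes, a route that tissue-resident memory (TRM) cells have left. Klf10 and Klf11 were named as early genes induced by TGF-β, one of the cytokines given to the TRM-like cells.

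The third zinc finger shows how closely these genes are related, which bears on how well short reads can be assigned among them. Its coding sequence in the GENCODE transcripts is given for each gene, from the first cysteine to the last histidine, with the codons of the zinc-binding cysteines and histidines in capitals.
Klf10: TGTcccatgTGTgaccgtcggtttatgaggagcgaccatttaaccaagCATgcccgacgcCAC
Klf11: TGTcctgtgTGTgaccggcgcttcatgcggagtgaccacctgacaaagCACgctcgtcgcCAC
Klf9: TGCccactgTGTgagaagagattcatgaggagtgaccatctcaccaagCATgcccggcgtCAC
Klf13: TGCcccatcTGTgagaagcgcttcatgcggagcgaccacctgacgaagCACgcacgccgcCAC
Klf3: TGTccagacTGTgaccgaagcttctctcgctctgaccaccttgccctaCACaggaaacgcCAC
Klf12: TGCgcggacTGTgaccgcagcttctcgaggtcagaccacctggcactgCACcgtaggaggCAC
Klf6: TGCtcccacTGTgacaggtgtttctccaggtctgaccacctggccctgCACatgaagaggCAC
Klf7: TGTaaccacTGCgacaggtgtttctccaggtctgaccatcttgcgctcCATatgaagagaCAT
Klf4: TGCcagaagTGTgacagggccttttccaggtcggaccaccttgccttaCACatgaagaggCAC
The first 4 lines are the genes of the Sin3A-binding group, the next pair are the CtBP-binding repressors, and Klf6, Klf7 and Klf4 follow. Over the 243 bases of the finger region, the 36 pairs of genes were identical at 57.2 to 81.1% of bases, with a median of 64.6%. Klf6 and Klf7 were the closest pair at 81.1%, followed by Klf3 and Klf12 at 78.2% and by Klf10 and Klf11 at 76.1%. The longest run of identical bases between the whole transcripts of any pair was 12 to 41 bases, and the 41 bases were shared by Klf3 and Klf12. Within the finger region alone the longest run was 8 to 26 bases, with 26 for Klf6 and Klf7 and 14 for Klf3 and Klf12.

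Total counts were 18319013 to 21960760 in TEff samples and 21178756 to 23622621 in TRM-like samples. The TRM-like libraries were not alike. Replicates 1 and 2 had a count at 35130 and 35559 genes, against 24229 genes in TRM-like replicate 3 and 24235 to 24908 in TEff samples. Among 1193 olfactory receptor genes, a set picked after the values were seen because T cells are not known to use it, 730 and 782 genes had a count in TRM-like replicates 1 and 2 and 34 to 42 in each of the other 4 samples. Fold changes without TRM-like replicate 3 are given beside those with all samples for the 7 KLF genes with enough counts. That fit sets only TRM-like replicates 1 and 2 against TEff. In it, the treatment and this difference in genes detected cannot be told apart. All 7 markers of CD8 T cells were detected, Cd8a passed the test described below at a log2 fold change of 1.14, and their summed level was 2088 to 2221 CPM (counts scaled to a common library size) in TEff samples and 2579 to 3583 CPM in TRM-like samples. The 7 did not all move the same way. Cd2 was at 267 to 290 CPM in TEff and 150 to 196 CPM in TRM-like samples, at a log2 fold change of −0.64 that did not pass. The 14 markers of other cell types summed to 4.30 to 5.57 CPM in TEff and 3.04 to 8.65 CPM in TRM-like samples. Of those 14, Ms4a1, Lyz2 and Hbb-bs were at 0 outside TRM-like replicate 2. The sum of the 14 was 7.81 and 8.65 CPM in TRM-like replicates 1 and 2 and 3.04 CPM in replicate 3, and its part in the KLF values was not tested.

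No KLF gene passed the test between TRM-like and TEff cells, but the genes did not behave alike. Klf3 was lower in every TRM-like sample, by 4.10-fold in the fit, and Klf11 was lower in 2 of 3. Klf9 and Klf10 were slightly higher in every TRM-like sample. Klf6, Klf7 and Klf13 had overlapping groups, and Klf4 and Klf12 had 10 counts or fewer in each sample. The test was edgeR's quasi-likelihood test on all 26154 genes with a count in at least 3 samples, and a gene passed at a Benjamini-Hochberg adjusted p below 0.05 with a log2 fold change beyond 0.58 in either direction. All 9 KLF genes were tested and 0 passed, where 3.01% of all genes did (1.52% higher and 1.48% lower in TRM-like cells). At an unadjusted p below 0.05 there were 2, Klf3 and Klf9, against 14.8% of all genes. DESeq2, the tool that the paper used with the same cutoffs, and limma-voom each called 1 of the 9, Klf3 in both. They called 4.80% and 2.82% of all genes. The groups did not overlap for 3 of the 9, against 20.3% of all genes. The median log2 fold change of the 9 genes was 0.08, beside 0.02 over all genes tested. In bulk RNA, fewer cells expressing a gene and less RNA per cell cannot be told apart.

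**Figure D1:**
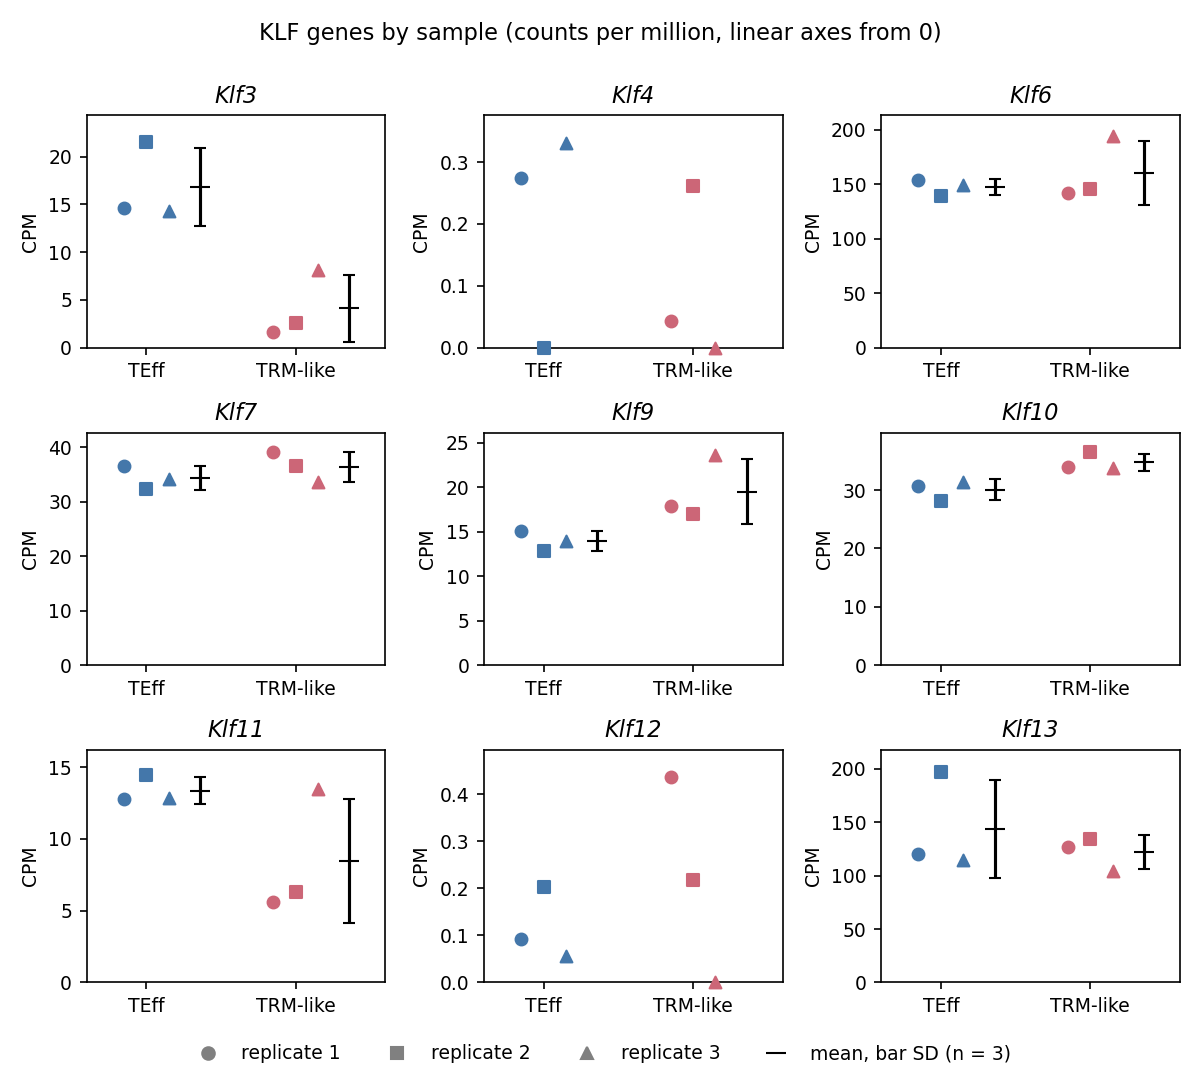
Level of each KLF gene in CPM on linear axes from 0, with one point per sample, the replicate number given by the shape, and a bar for the mean and SD (n = 3), which is left out for Klf4 and Klf12 because of their few counts. Klf3 was at 14.4 to 21.5 CPM in TEff and 1.66 to 8.12 CPM in TRM-like samples, and TRM-like replicate 3 stood above the other two for Klf3, Klf6, Klf9 and Klf11.

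Klf10 encodes a repressor of the TGF-β-inducible pair that recruits Sin3A and is known to lower Smad7, an inhibitor of TGF-β signalling. Klf10 (ENSMUSG00000037465, GRCm39 chromosome 15, 38291703 to 38300959) was at 30.7, 28.1 and 31.4 CPM in the TEff samples and at 34, 36.5 and 33.8 CPM in the TRM-like samples. Each TRM-like sample was above each TEff sample, and all 6 lay close together. The means were 30.1 ± 1.76 CPM in TEff and 34.8 ± 1.50 CPM in TRM-like cells (SD, n = 3 each). The log2 fold change was 0.21 with an SE of 0.12 and a 95% interval of −0.06 to 0.48, and the edgeR adjusted p was 0.494. The upper end of that interval is below the fold threshold of 0.58, and the value was 0.22 without TRM-like replicate 3.

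Klf11 is the closest relative of Klf10 and is likewise a TGF-β-inducible repressor. Klf11 (ENSMUSG00000020653, chromosome 12, 24701273 to 24712913) was at 12.8, 14.5 and 12.8 CPM in TEff samples and at 5.63, 6.33 and 13.5 CPM in TRM-like samples. TRM-like replicates 1 and 2 were below every TEff sample, and replicate 3 lay within the TEff range at 2.25 times the mean of the other pair. With all samples the log2 fold change was −0.66 (SE 0.31, 95% interval −1.35 to 0.03) at an edgeR adjusted p of 0.363. Without TRM-like replicate 3 it was −1.17 (SE 0.15) at an edgeR adjusted p of 0.000105, in a fit that called 14.0% of all genes, 7.67% as lower. Without TRM-like replicate 1 or 2 it was −0.43 or −0.49, at edgeR adjusted p of 0.725 and 0.748. The ratio of Klf10 to Klf11 in CPM per kilobase of exonic length, which does not depend on library scaling, was 2.56, 2.07 and 2.62 in TEff samples and 6.45, 6.15 and 2.68 in TRM-like samples. It was higher in each TRM-like than in each TEff sample, by only a little in replicate 3, and it was picked for these values, so it is a description without a test.

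Klf3 encodes a repressor that recruits CtBP and is known in lymphocytes for holding down genes that Klf2 activates. Klf3 (ENSMUSG00000029178, chromosome 5, 64959875 to 64990261) was at 14.6, 21.5 and 14.4 CPM in TEff samples and at 1.66, 2.58 and 8.12 CPM in TRM-like samples. These values rest on 319, 425 and 260 counts in TEff and on 38, 59 and 176 counts in TRM-like libraries. The groups did not overlap, but TRM-like replicate 3 was 3.83 times the mean of the other pair. The means were 16.8 ± 4.06 CPM and 4.12 ± 3.49 CPM (SD, n = 3 each). The log2 fold change was −2.03 (SE 0.49, 95% interval −3.15 to −0.91), the largest of the KLF genes whose lowest count was 10 or more, at an edgeR adjusted p of 0.0706. Its adjusted p was 0.00118 by DESeq2 and 0.0311 by limma-voom. Without TRM-like replicate 3 the log2 fold change was −3.0 (SE 0.24) at an edgeR adjusted p of 1.88e-06. At the level of the olfactory receptor genes, Klf3 would have held 2.79 and 3.02 counts in TRM-like replicates 1 and 2. The ratio of Klf10 to Klf3 in CPM per kilobase was 2.87, 1.78 and 2.98 in TEff samples and 28.0, 19.3 and 5.69 in TRM-like samples, again as a description. On the opposite strand, the long noncoding gene Gm20033 overlaps 643 exonic bases of Klf3 and had 1 to 11 counts per sample. The strand setting of the counting is not given in the sources used here, so reads of the pair may not be separable.

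The promoters of Klf3 and Klf11 are shown because these genes had the largest differences in TRM-like replicates 1 and 2. The 250 bases before the RefSeq start of each gene are printed from the GRCm38.p6 assembly, an older build than that of the counts, on the strand of the gene, with CACCC and GGGCGG (either strand) in capitals.
Klf3 promoter, chr5:64803271-64803520 on the plus strand: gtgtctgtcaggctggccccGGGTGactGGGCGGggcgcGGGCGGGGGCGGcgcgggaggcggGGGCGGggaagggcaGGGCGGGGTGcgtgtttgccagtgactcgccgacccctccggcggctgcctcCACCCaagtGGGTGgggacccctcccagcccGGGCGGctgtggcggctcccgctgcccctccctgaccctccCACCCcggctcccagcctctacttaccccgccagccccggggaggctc
Klf11 promoter, chr12:24651121-24651370 on the plus strand: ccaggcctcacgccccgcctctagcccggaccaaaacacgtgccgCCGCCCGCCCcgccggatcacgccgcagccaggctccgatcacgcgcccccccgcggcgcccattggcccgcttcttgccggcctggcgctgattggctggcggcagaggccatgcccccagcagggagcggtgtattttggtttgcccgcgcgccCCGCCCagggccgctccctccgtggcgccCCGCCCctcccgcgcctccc
The Klf3 window held 5 matches to CACCC and 6 to GGGCGG, whereas the Klf11 window held 0 and 4. Matches were counted on both strands and could overlap each other. Their GC contents were 78.4% and 76.8%, beside a median of 52.4% over 32851 promoters of the same length. Klf10 had no entry in the promoter table. Of the 8 KLF genes matched, 5 held CACCC and 6 held GGGCGG, and 52.0% and 32.7% of all promoters did. GTCTAGAC, a palindrome bound by SMAD proteins, was in 0 of the 8 and in 0.167% of all promoters.

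Klf9 encodes a GC-box-binding repressor induced by glucocorticoids. Klf9 (ENSMUSG00000033863, chromosome 19, 23118187 to 23148497) was at 15.1, 12.8 and 14.0 CPM in TEff samples and at 17.9, 17.0 and 23.7 CPM in TRM-like samples. Each TRM-like sample was above each TEff sample, with replicate 3 the highest. The log2 fold change was 0.48 (SE 0.17, 95% interval 0.10 to 0.86) at an edgeR unadjusted p of 0.0182 and an adjusted p of 0.215. Without TRM-like replicate 3 it was 0.31. The antisense gene Gm56648 overlaps 333 exonic bases of Klf9 and had 0 to 8 counts per sample.

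Klf13 encodes a factor known for activating Ccl5 in activated T cells. Klf13 (ENSMUSG00000052040, chromosome 7, 63536099 to 63588663) was at 120, 197 and 114 CPM in TEff samples and at 127, 135 and 104 CPM in TRM-like samples. TEff replicate 2 was far above the other samples, and the rest of the groups overlapped. The log2 fold change was −0.24 (SE 0.22, 95% interval −0.73 to 0.26) at an edgeR adjusted p of 0.686, and it was 0.06 without TEff replicate 2 and −0.14 without TRM-like replicate 3. TEff replicate 2 was also the highest sample for Klf3, at 21.5 CPM, and for Klf11, at 14.5 CPM.

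Klf6 encodes a widely expressed activator that responds to injury and growth signals. Klf6 (ENSMUSG00000000078, chromosome 13, 5911481 to 5920393) was at 153, 139 and 150 CPM in TEff samples and at 141, 146 and 194 CPM in TRM-like samples. TRM-like replicate 3 was the highest, and the other 5 samples lay between 139 and 153 CPM. The log2 fold change was 0.12 (SE 0.16, 95% interval −0.23 to 0.48) at an edgeR adjusted p of 0.773, and −0.05 without TRM-like replicate 3.

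Klf7, the closest relative of Klf6, is known for its part in neurons. Klf7 (ENSMUSG00000025959, chromosome 1, 64068606 to 64161508) was at 36.6, 32.3 and 34.2 CPM in TEff samples and at 39.1, 36.6 and 33.6 CPM in TRM-like samples. The groups overlapped, and the log2 fold change was 0.08 (SE 0.13, 95% interval −0.20 to 0.37) at an edgeR adjusted p of 0.814, and 0.13 without TRM-like replicate 3. For Klf6, Klf7 and Klf10, the intervals exclude a change as large as the threshold of 0.58 in either direction.

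**Figure D2:**
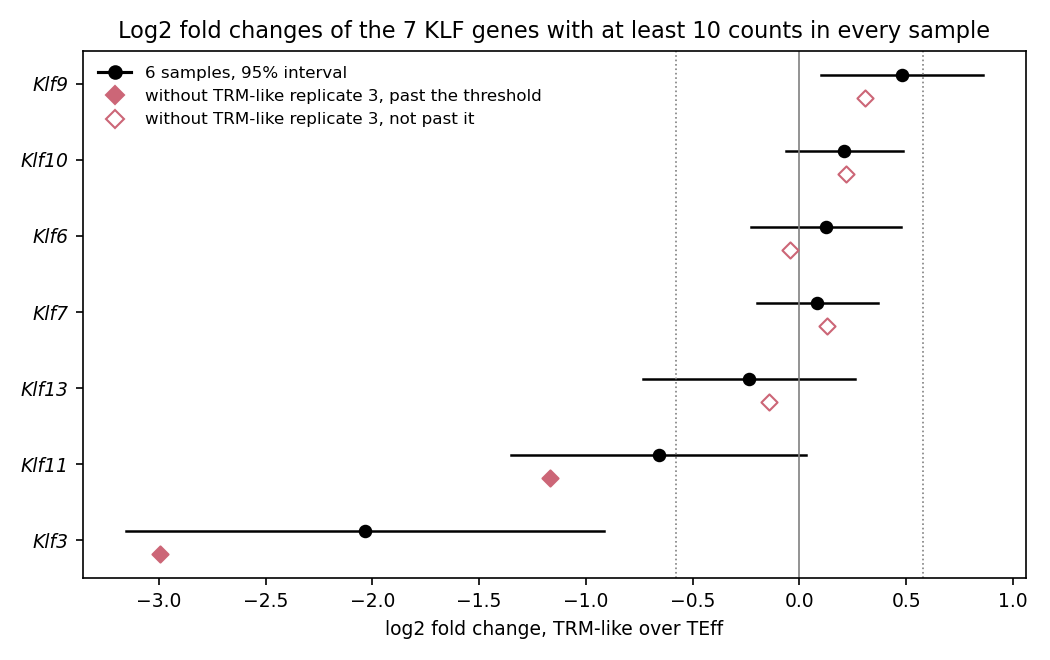
Log2 fold change of TRM-like over TEff for the 7 KLF genes with 10 or more counts in all samples, with black points and bars for all 6 samples and their 95% intervals, diamonds for the fit without TRM-like replicate 3, and dotted lines at the fold threshold. Klf3 and Klf11 passed the threshold in that second fit, at −3.0 and −1.17, and the other 5 did not.

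Klf4, a factor of quiescence in CD8 T cells and of pluripotency elsewhere, and Klf12 were near the limit of detection. Klf4 (ENSMUSG00000003032, chromosome 4, 55527139 to 55532528) had 6, 0 and 6 counts in TEff and 1, 6 and 0 counts in TRM-like samples. Klf12 (ENSMUSG00000072294, chromosome 14, 100103674 to 100522428) had 2, 4 and 1 counts in TEff and 10, 5 and 0 counts in TRM-like samples. At the level of the olfactory receptor genes, Klf12 would have held 3.15 and 3.40 counts in TRM-like replicates 1 and 2, and Klf4 1.62 and 1.75. No fold change with all samples is given for either gene, and no difference was detectable at this depth (edgeR adjusted p of 0.773 for Klf4 and 0.753 for Klf12). The CtBP-binding repressors thus differed in level, since Klf3 was at 3.22 CPM per kilobase in TEff cells and Klf12 at 0.0198.

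Levels of different genes were compared only per length, as CPM per kilobase of the gene length deposited with the counts. The TEff means were 34.9 for Klf6, 21.5 for Klf13, 7.86 for Klf10, 4.27 for Klf7, 3.27 for Klf11, 3.22 for Klf3, 3.11 for Klf9, 0.0667 for Klf4 and 0.0198 for Klf12. The ranges of Klf11, Klf3 and Klf9 overlapped, as did those of Klf3 and Klf7 and of Klf4 and Klf12, so their order is not set. The TRM-like means were 38.0 for Klf6, 18.3 for Klf13, 9.08 for Klf10, 4.53 for Klf7, 4.35 for Klf9, 2.07 for Klf11, 0.789 for Klf3, 0.0370 for Klf12 and 0.0336 for Klf4. There the ranges of Klf7 and Klf9, of Klf11 and Klf3, and of Klf12 and Klf4 overlapped. Klf6 and Klf13 made up 52.1 to 60.9% of the summed per-length level of the 18 KLF family genes in each sample. Klf3 made up 2.87, 3.44 and 2.84% in TEff samples and 0.368, 0.545 and 1.47% in TRM-like samples.

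**Figure D3:**
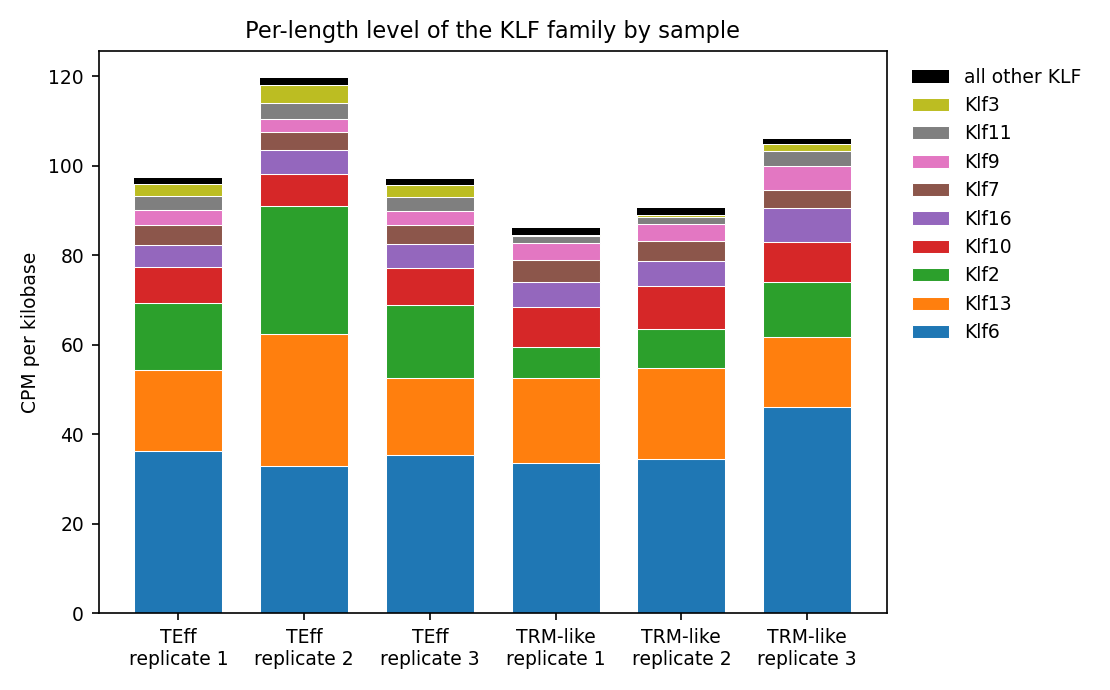
Summed level of the KLF family in CPM per kilobase for each sample, on a linear axis from 0 and divided by gene. Klf6 and Klf13 formed 52.1 to 60.9% of each bar, and the Klf3 segment was thin in TRM-like replicates 1 and 2.

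Klf2 itself was at 27.7, 52.6 and 30.3 CPM in TEff samples and at 12.9, 16.3 and 22.8 CPM in TRM-like samples, with a log2 fold change of −1.09 (SE 0.28) at an edgeR adjusted p of 0.0891, and it passed without TRM-like replicate 3, at −1.35. As for Klf3, the groups did not overlap and TRM-like replicate 3 was nearest to TEff. Of the 11 other KLF and SP genes tested, Klf2 among them, 0 passed with all samples. Klf16, Klf8 and Klf1, and the relatives Sp1, Sp2, Sp3 and Sp4, had log2 fold changes from −0.14 to 0.28. Klf5 had 0 counts in TEff samples and 3, 5 and 2 counts in TRM-like samples, at or near the limit of 3 counts that a count of 0 allows. At the level of the olfactory receptor genes, Klf5 would have held 2.78, 3.00 and 0.25 counts in TRM-like replicates 1, 2 and 3.

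The cofactors through which KLFs act were measured in both groups without a called change. Of 12 genes, among them the CtBP corepressors Ctbp1 and Ctbp2 and the Sin3 scaffolds Sin3a and Sin3b, 0 passed, and the median log2 fold change was −0.02. Ctbp1 was at 172 to 195 CPM in TEff and 173 to 213 CPM in TRM-like samples. Ctbp2 was at 1.77 to 1.92 CPM in TEff and 1.05 to 1.29 CPM in TRM-like samples, which did not overlap, with a log2 fold change of −0.65 at an edgeR adjusted p of 0.274. The Klf3-binding cofactor Fhl3 was at 18.7 to 20.2 CPM in TEff and 22.2 to 44.6 CPM in TRM-like samples, which did not overlap either. Its log2 fold change was 0.87 at an edgeR adjusted p of 0.0988. Fhl3 was the 1 of 12 cofactors that passed without TRM-like replicate 3, where 14.0% of all genes did.

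Among 11 genes known as KLF targets, 3 were lower and 0 higher in TRM-like cells, beside 1.48% and 1.52% of all genes, and 4 were lower without TRM-like replicate 3, where 7.67% of all genes were. This list was chosen with earlier results of these samples known and is not independent evidence of a direction. The exit receptor S1pr1 fell by 2.33 on the log2 scale. Ccl5, the chemokine gene that Klf13 activates, fell by 4.30, from 23.4, 63.4 and 32.5 CPM to 1.35, 1.92 and 2.77 CPM, beside overlapping Klf13 levels. The cell cycle inhibitor Cdkn1a fell by 1.98. The edgeR adjusted p of these genes was 0.00686, 0.00113 and 0.00825, in that order. The homing receptor gene Ccr7 went the other way, from 26.9 to 28.1 CPM in TEff to 29.3 to 59.7 CPM in TRM-like samples. Its log2 fold change was 0.60 at an edgeR adjusted p of 0.279. Of the 11 targets, 3 had TRM-like samples all above and 3 all below TEff, where 20.3% of all genes had groups that did not overlap. Smad7, a gene that Klf10 and Klf11 are known to repress, was at 23.2, 35.8 and 25.9 CPM in TEff and 41.3, 43.2 and 35.3 CPM in TRM-like samples, with a log2 fold change of 0.50 at an adjusted p of 0.234.

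Of 17 TGF-β response genes, 6 were higher and 1 lower in TRM-like cells, beside 1.52% and 1.48% of all genes. The numbers were again 6 and 1 without TRM-like replicate 3, where 6.38% and 7.67% of all genes were called. The list was likewise chosen with earlier results known. Higher were the SMAD corepressors Skil (1.89) and Ski (1.15), the ubiquitin ligase Smurf2 (0.99), the signalling inhibitors Pmepa1 (3.51) and Ldlrad4 (4.19), and Itgae (4.57), which encodes CD103, all as log2 fold changes. Smad3, a transducer of the pathway, fell by 2.98 on the same scale. The edgeR adjusted p of these 7 genes was 0.000151 to 0.00448. In TRM-like replicates 1, 2 and 3, Itgae was at 707, 742 and 284 CPM, Ldlrad4 at 51.3, 46.1 and 25.0 CPM, and Smad3 at 1.44, 1.40 and 3.87 CPM. Replicate 3 was thus nearest to TEff for these genes, as for Klf3 and Klf11. Pmepa1 and Skil went the same way, Ski differed little between the replicates, and Smurf2 was highest in replicate 3, at 60.4 CPM. Klf10, at 0.21, and Klf11, at −0.66, were below each of those 6 genes, although whether they differ from them was not tested.

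Since KLFs such as Klf6 and Klf10 can respond quickly to stimulation, 15 immediate-early genes were read beside them. Jun rose by 1.86 on the log2 scale, Ier3 fell by 2.05 and Atf3 fell by 2.33, at edgeR adjusted p of 0.00376, 0.00232 and 0.00807, and the other 12 did not pass. That is 1 higher and 2 lower, beside 1.52% and 1.48% of all genes. Without TRM-like replicate 3 there were 2 higher and 3 lower, beside 6.38% and 7.67%. Egr2, induced by T cell receptor signals, was at 11.2 and 12.8 CPM in TRM-like replicates 1 and 2 and at 3.0 CPM in replicate 3. Its relative Egr3 was at 26.5, 24.3 and 5.03 CPM in the same samples. Other genes of the list went the other way there, such as Ier3, at 5.32, 4.94 and 9.13 CPM, and Fosb, at 0.79, 1.22 and 2.26 CPM. The part of these genes in the Klf3 and Klf11 levels of TRM-like replicate 3 was not tested.

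**Figure D4:**
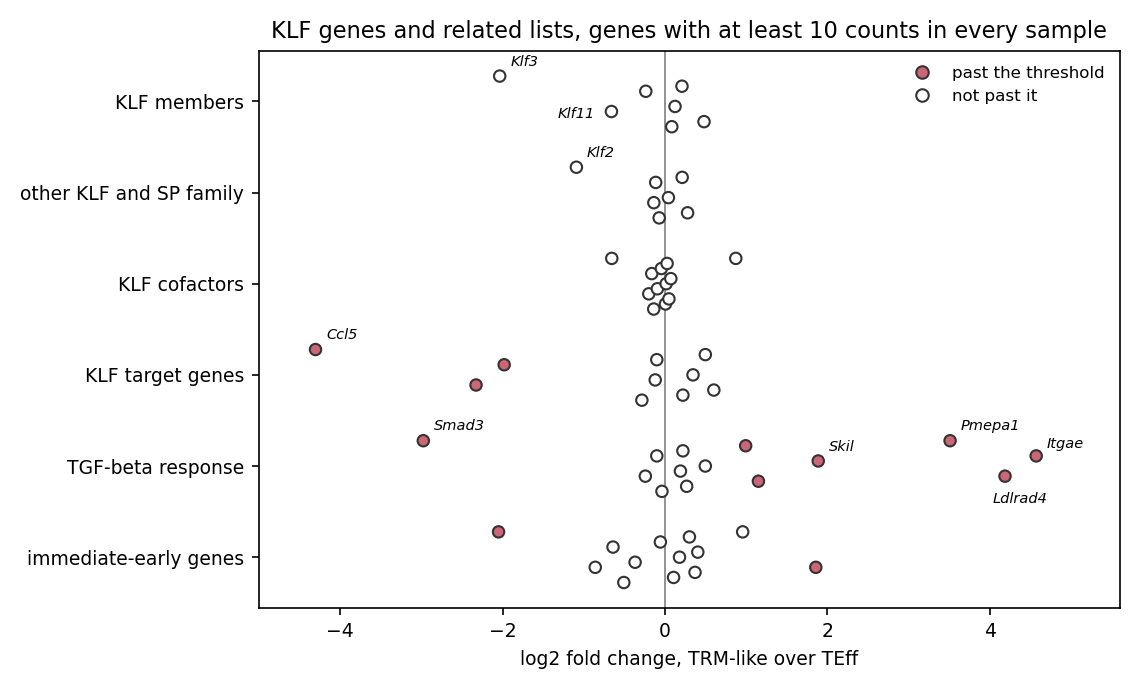
Log2 fold change of TRM-like over TEff for the KLF genes and 5 related gene lists, for genes with 10 or more counts in all samples, with filled points for genes past the threshold in the fit of all 6 samples and the vertical spread within a row only for legibility. The KLF genes, the rest of the family and the cofactors have no filled point, and the targets have filled points on the left at −4.30 to −1.98.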

How the data were processed

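RNA was extracted on day 6 from 3 TEff and 3 TRM-like samples, grouped by their titles, and total RNA libraries were made with a stranded kit. The authors trimmed reads with Cutadapt 4.8, used Rsubread to map and count them against GENCODE's GRCm39 gene models, and deposited the raw read counts with each gene's length. The submitters' notes also name DESeq2 1.40.2. The strand setting and the treatment of reads with several matches are not given in the sources used here, nor is the batch that the study modelled, so none was fitted. Identifiers were matched to a later GENCODE release of the same build, which held 56620 of 57126.

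The counts were tested with edgeR 4.0.16 in R 4.3.3 (TMM normalization, group as the only term, genes with a count in at least 3 samples, Benjamini-Hochberg adjustment), where the SE is the log2 fold change over the square root of F. Alternatives were DESeq2 1.42.0, limma-voom 3.58.1, other scalings and filters, a block for the replicate number, and fits that dropped 1 sample at a time. CPM used TMM-scaled library sizes. The KLF genes and all lists were chosen with earlier results of these data known. Named genes were the 9 KLF genes and, from the lists, genes past the threshold, Klf2 and KLF or SP genes above the lowest KLF level. Klf5, Ctbp1, Ctbp2, Sin3a, Sin3b, Fhl3, Ccr7, Smad7, Egr2, Egr3 and single cell type markers were named after their values were seen. From the lists as first drawn up, 2 genes were left out and are not reported here.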

Additional observations from a re-analysis of the deposited data

How the results depend on the processing

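Of 129 values recomputed for the 9 KLF genes, 117 kept their direction and their side of the threshold, 9 passed it anew, 0 no longer passed and 3 changed sign. With all samples, the number of KLF genes past the threshold was 0 in the main edgeR fit, 1 with DESeq2 or limma-voom (Klf3) and 2 with no filter on low counts (Klf3 and Klf11). It was 0 to 2 when each sample was left out in turn, with 2 only without TRM-like replicate 3. Of all genes, 786 passed, against 1256 with DESeq2, 1868 with no filter and 263 to 3579 with a sample left out, the highest again without TRM-like replicate 3. The cause was not tested. The log2 fold changes that changed sign ranged over the samples left out from −0.045 to 0.21 for Klf6 (negative without TRM-like replicate 3), from −0.068 to 1.49 for Klf12 (negative without TRM-like replicate 1) and from −0.36 to 0.057 for Klf13 (positive without TEff replicate 2). With a sample left out, the Klf3 value ranged from −3.0 to −1.66 and its edgeR adjusted p from 1.88e-06 to 0.268, and the Klf11 value ranged from −1.17 to −0.43 and its adjusted p from 0.000105 to 0.748.

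The replicate numbers are shared by the groups, but the labels do not say whether same-numbered samples belong together. The deviations of same-numbered samples from their group means had correlations of −0.29, 0.31 and 0.39 over 14822 genes. These values do not settle whether the samples were paired. With the replicate block, 2 KLF genes (Klf3 and Klf11) and 2034 genes in all passed. In this fit and in the one with no filter, edgeR estimated no variation of the dispersion between genes, and the block repeated on genes with 10 or more counts in all samples, a choice made after seeing the data, gave 1 KLF gene (Klf3) and 903 genes in all (6.09%). The depth limits Klf4 and Klf12, which had 10 counts or fewer in each sample.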
